A study of Homo sapiens with 12 samples.

Results

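Interferon-stimulated effector genes are the transcripts through which a cell answers type I and type III interferons. A set of 39 such genes, chosen by symbol, was followed across 4 groups of cultured LM2 cells. The choice was made with earlier results of these data known, so shares of members called are only descriptive beside those of all genes. All 39 symbols were present among the 26006 rows of the deposited expression table, each in 1 row, and 34, averaging 1 FPKM or more across the 12 libraries, were tested. LM2 is a lung-metastatic subline of MDA-MB-231, a human triple-negative breast cancer cell line, grown in DMEM with serum. Each group had 3 libraries of total RNA: a scramble short hairpin RNA (shRNA), an EZH2 shRNA, a scramble small interfering RNA (siRNA) or a ZRANB1 siRNA was given to the cells. EZH2 is the catalytic subunit of Polycomb repressive complex 2, and ZRANB1 is an OTU-family deubiquitinase. The sources used here give no hairpin or siRNA sequence, no number of clones and no time after delivery.

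Interferons bind receptors that act through the kinases JAK1 and TYK2 on STAT proteins. STAT2 and IRF9 are part of the complex that then binds interferon-stimulated response elements in the promoters of target genes. The products attack virus particles, viral RNA and translation, tag proteins with the ubiquitin-like protein ISG15, or call in lymphocytes. Tumour cell lines often express part of this programme without added interferon, and IRF1 and NF-kB can drive a share of the same genes.

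Expression was given as FPKM, a fragment count corrected for the length of the transcript and the size of the library, so levels can be compared between genes per length. Within a group the 3 values of a row were deposited in text order, so a value could not be assigned to its library, and the 3 values are given below from lowest to highest. No counts were in the table and the depth behind a value is unknown. Separate cultures were not stated for the libraries of a group, so the p-values rest on a spread between samples that may be technical only. In bulk RNA, fewer cells expressing a gene and less of its RNA per cell cannot be told apart. EZH2 stood at 34.2, 35.6 and 36.3 FPKM in the shRNA control and 16.1, 16.1 and 17.3 FPKM with its shRNA, and all 3 values were lower (log2 fold change -1.06, limma adjusted p = 1.34e-05). EZH2 was also lower in the other comparison, at 46.5, 48.7 and 50.6 FPKM in the siRNA control and 28.3, 30.4 and 32.4 FPKM in the ZRANB1 siRNA group (62.5% of control, log2 fold change -0.66, adjusted p = 5.43e-05). Its siRNA control values lay above its shRNA control values (log2 difference 0.45, adjusted p = 2.31e-04). ZRANB1 stood at 10.5, 11.5 and 12.1 FPKM with the scramble siRNA and 9.05, 9.49 and 11.5 FPKM in its siRNA group, the values overlapped, and no change was called (adjusted p = 0.349), so this group is called the libraries labelled ZRANB1 siRNA. Of the MDA-MB-231 markers, VIM, CD44, CAV1, AXL and MSN were present in all groups with summed levels of 3162 to 4103 FPKM, and PGR was at 0 throughout. ESR1 and CDH1 had group means of at most 0.045 FPKM, while ERBB2 and EPCAM, also listed as low or absent in this line, had group means of 11.9 to 19.9 and 3.53 to 8.23 FPKM. For leukocytes, CD3D and MS4A1 were at 0 in all libraries and PTPRC had group means of at most 0.021 FPKM; of the 8 listed leukocyte markers the summed level ran from 36.2 to 40.7, 34.01 to 42.0, 38.8 to 42.5 and 41.1 to 44.8 FPKM in the order scramble shRNA, EZH2 shRNA, scramble siRNA, ZRANB1 siRNA, most of it CD68. CD14, of that list, had means of 3.896, 2.87, 0.243, 0.867 FPKM in the same order. The 6 fibroblast markers, nearly all COL1A1, summed to 21.6 to 27.7, 18.6 to 21.3, 8.15 to 9.55 and 16.6 to 20.02 FPKM in that order, which is the order of groups seen for many members below, while COL1A2, COL3A1, DCN and LUM had group means of at most 0.352 FPKM. These sums run over deposited columns, which do not follow libraries. The part of these genes in the results was not tested.

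Promoter sequence is shown first because interferon-stimulated genes are known for a shared control element. RefSeq promoter windows (GRCh38.p14, 250 bases before to 50 bases after a start) were at hand for 33 of the 39 members, in 45 windows. The core of the interferon-stimulated response element, GAAANNGAAA on either strand, was found in windows of 22 of these 33 members (26 of 45 windows) and in 3.57% of all 35116 windows. The STAT dimer motif TTCNNNGAA, which is its own reverse complement and can share bases with the first motif, was found in 11 of 33 members (12 of 45 windows) and in 7.66% of all windows. The stretches below end at the base before the annotated start, with matches to GAAANNGAAA or its reverse complement in capitals. Only windows with a match were printed, at 150 bases, or at 200 for MX1, which had no match in the last 150 before a start. A match in each printed stretch was thus set by the choice. The build is GRCh38.p14 and all 6 read 5′ to 3′ along the gene. IFIT1, IFIT3, IFI44 and RSAD2 are shown because they were called in opposite directions in the EZH2 shRNA and ZRANB1 siRNA comparisons. IFIT5 is shown because it holds 2 matches in this stretch and was called in neither, and MX1 because its levels ran opposite to those of the first 4 between the controls.
IFIT1, chr10:89392473-89392622, plus strand: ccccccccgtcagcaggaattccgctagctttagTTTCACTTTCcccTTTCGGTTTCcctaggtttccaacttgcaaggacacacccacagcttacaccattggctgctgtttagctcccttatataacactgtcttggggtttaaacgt
IFIT3, chr10:89332379-89332528, plus strand: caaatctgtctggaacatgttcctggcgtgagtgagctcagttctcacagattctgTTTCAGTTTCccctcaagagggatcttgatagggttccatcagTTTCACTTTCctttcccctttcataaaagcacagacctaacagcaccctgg
IFI44, chr1:78649639-78649788, plus strand: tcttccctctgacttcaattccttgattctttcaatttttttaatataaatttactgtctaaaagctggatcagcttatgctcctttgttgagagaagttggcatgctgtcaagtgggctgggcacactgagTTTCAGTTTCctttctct
RSAD2, chr2:6877627-6877776, plus strand: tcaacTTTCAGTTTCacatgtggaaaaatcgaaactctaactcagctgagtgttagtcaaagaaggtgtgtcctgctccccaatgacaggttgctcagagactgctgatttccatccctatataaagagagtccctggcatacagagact
IFIT5, chr10:89414418-89414567, plus strand: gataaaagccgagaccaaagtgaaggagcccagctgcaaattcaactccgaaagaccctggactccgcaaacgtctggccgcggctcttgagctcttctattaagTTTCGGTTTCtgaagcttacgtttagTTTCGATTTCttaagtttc
MX1, chr21:41431850-41432049, plus strand: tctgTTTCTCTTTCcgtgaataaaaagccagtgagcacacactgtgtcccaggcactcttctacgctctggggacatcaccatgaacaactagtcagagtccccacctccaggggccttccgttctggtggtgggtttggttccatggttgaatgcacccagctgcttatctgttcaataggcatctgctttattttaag
The stretch of IFIT1 held matches that begin at -116 and -103 from the start and that of IFIT3 at -94 and -51, while those of IFIT5 began at -45 and -19. A further IFIT5 match begins at -4 and spans the start, so it is not in capitals in the printed stretch. The MX1 match at -196 is in 1 of 3 windows of that gene, and another window held a match at base 12 after its start. IFIT3, IFI44 and RSAD2 each have 2 windows, of which 1 is shown. A match is only a match of letters, and binding was not measured.

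With the EZH2 shRNA, part of the effector genes stood lower and none was called higher. Of the 34 tested members, 10 fell, 0 rose and 24 were not called at an adjusted p below 0.05 (limma on log2(FPKM + 1), Benjamini-Hochberg over 11929 genes). The 10 were IFIT1, IFIT2, IFIT3, IFITM3, BST2, RSAD2, SAMD9L, UBE2L6, HERC6 and IFI44. Among all tested genes, 3.03% were called lower and 3.39% higher, 6.41% in all. Fold changes are on the scale of log2(FPKM + 1), which understates the change of low genes. The members had a median log2 fold change of -0.28, against -0.014 over all genes tested, and ranged from -1.36 (BST2) to 0.14 (DTX3L). In 17 tested members all 3 EZH2 shRNA values lay below the 3 control values, and in 0 all lay above; over all genes these shares were 11.6% and 10.6%.

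In the libraries labelled ZRANB1 siRNA, 18 members were higher than with the scramble siRNA, 2 were lower (IFITM2 and MX1) and 14 were not called. Over all tested genes 10.1% were called higher and 6.5% lower, 16.6% in all. The median log2 fold change of the members was 0.46, against -0.017 over all genes, with a range from -0.58 (MX1) to 1.58 (CXCL11). In 20 tested members all 3 values lay above the control values and in 2 all lay below, against 18.5% and 18.0% of all genes.

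**Figure D1:**
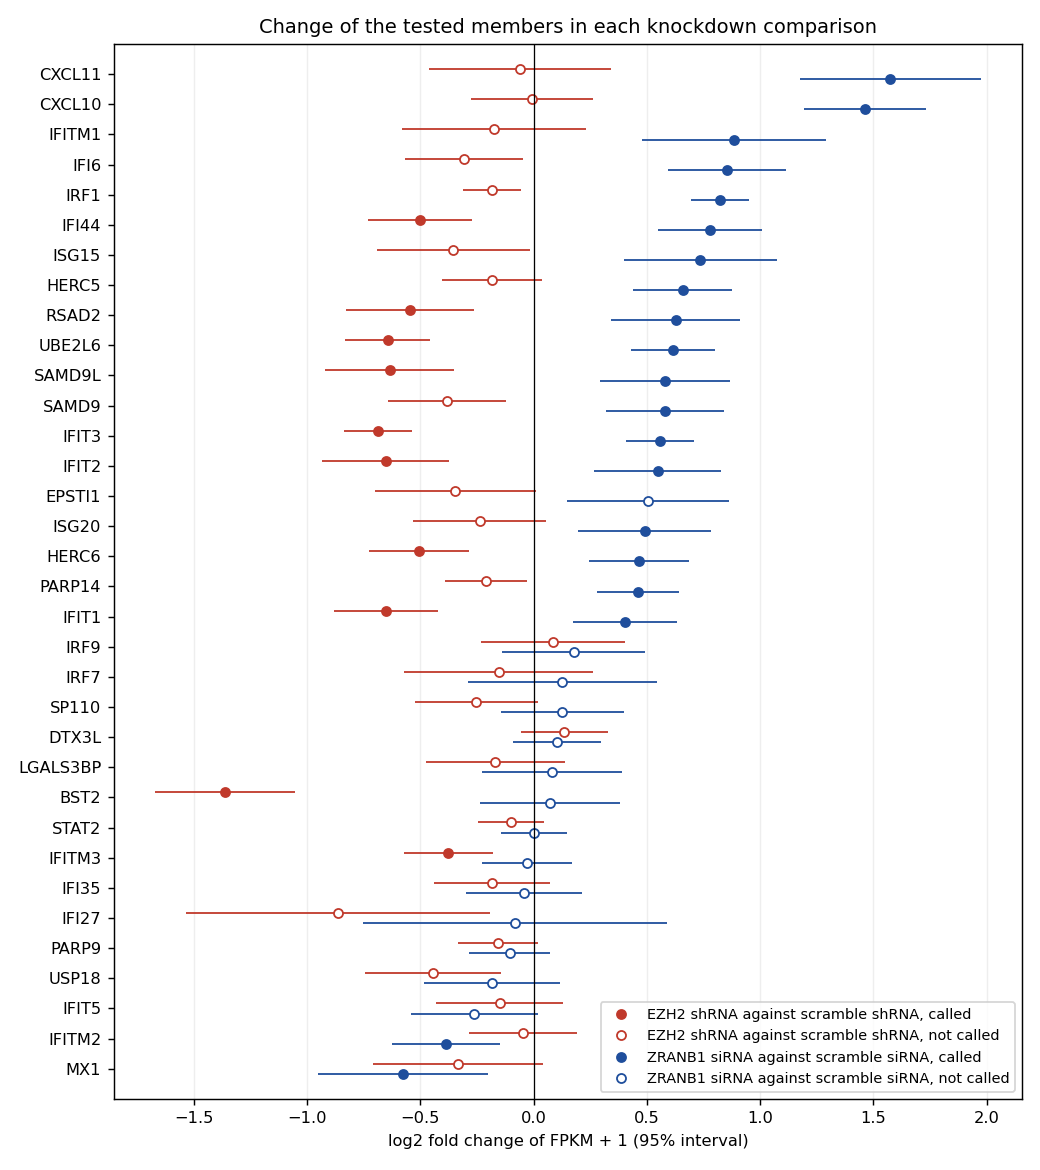
Log2 fold change of FPKM + 1 (x axis) with its 95% interval for the 34 tested members (y axis), in red for the EZH2 shRNA and in blue for the ZRANB1 siRNA group, each against its own scramble control; filled points were called at an adjusted p below 0.05. The 10 filled red points lie left of 0, and the filled blue points lie right of 0 for 18 members and left for IFITM2 and MX1.

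The 2 comparisons share no libraries, so their difference could be tested directly. Target, delivery route and level in the control differ together between them and cannot be told apart in this difference. The difference was called for 20 of the 34 members, each with a higher value for the ZRANB1 siRNA comparison, and for 0 in the other direction. Over all genes 6.91% and 3.58% were called, 10.5% in all. Of the 10 members lower with the EZH2 shRNA, 8 were among the 18 higher in the libraries labelled ZRANB1 siRNA, which is 8 of 10 and 8 of 18. These were IFIT1, IFIT2, IFIT3, IFI44, RSAD2, SAMD9L, UBE2L6 and HERC6. The difference was called for all 8, but they were picked by opposite calls in the same fit, so this adds no separate evidence. Over all tested genes, 111 of the 361 lower with the EZH2 shRNA (30.7%) were among the 1210 higher in the libraries labelled ZRANB1 siRNA (9.17% of those). BST2 and IFITM3 were lower with the EZH2 shRNA and not called in the other comparison; the difference was called for BST2 (adjusted p = 7.67e-04) and not for IFITM3 (0.117).

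The controls themselves differed for most members. With the scramble siRNA 22 members were lower than with the scramble shRNA, 2 were higher (IFITM2 and MX1) and 10 were not called, where 25.1% of all genes were called lower and 25.5% higher, 50.6% in all. Tested members lay wholly below the other control's values in 24 cases and wholly above in 4, where 29.2% and 30.8% of all genes did. Of those called lower, RSAD2, IFI27, SAMD9L, EPSTI1, CXCL10 and CXCL11 had scramble siRNA means below 1 FPKM. They passed the filter through other groups, so their lower calls are partly built into it. IFITM2 and MX1 had scramble shRNA means of 53.97 and 1.18 FPKM. With no filter 27 members were called lower and 2 higher, beside 3463 and 3350 of all genes. The median over members was -1.25, against 0.011 over all genes. With the filter, the 22 lower members included all 20 with a called difference and all 18 higher in the libraries labelled ZRANB1 siRNA. The 2 higher members, IFITM2 and MX1, were the 2 lower in those libraries. This contrast shares libraries with the EZH2 shRNA and ZRANB1 siRNA comparisons, so such overlaps add no separate evidence. The delivery route, any time in culture and any batch cannot be told apart in this contrast. Levels of each group are therefore given side by side below.

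**Figure D2:**
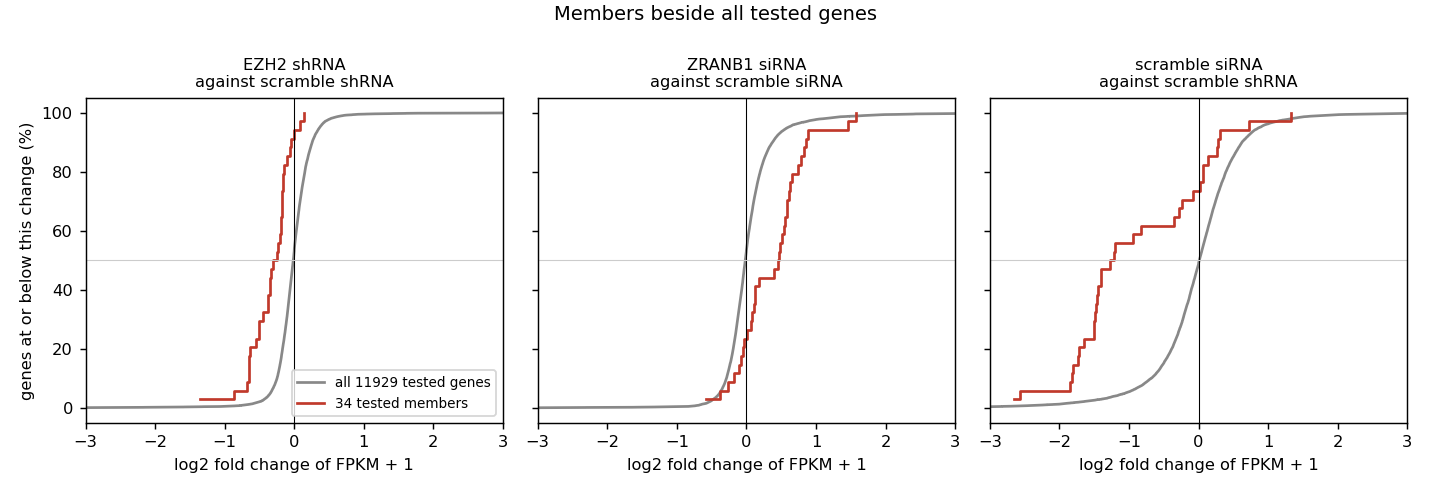
Share of genes (y axis, percent) at or below each log2 fold change of FPKM + 1 (x axis) for the 34 tested members in red and all 11929 tested genes in grey, in 3 contrasts. The members' median lies at -0.28 with the EZH2 shRNA, at 0.46 in the ZRANB1 siRNA group and at -1.25 between the controls, while that of all genes lies near 0 in each.

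The IFIT proteins bind viral RNA through tetratricopeptide repeats, and IFIT1 and IFIT5 recognise the ends of such RNA. Their genes lie side by side on chromosome 10 in the order IFIT2, IFIT3, IFIT1, IFIT5, with IFIT1B between IFIT3 and IFIT1. IFIT3 stood at 91.6, 93.96 and 98.2 FPKM with the scramble shRNA, at 56.5, 58.8 and 60.1 with the EZH2 shRNA, at 24.97, 25.1 and 26.2 with the scramble siRNA and at 34.9, 38.3 and 40.8 in the libraries labelled ZRANB1 siRNA. No 2 groups overlapped: the scramble shRNA group was highest, followed by EZH2 shRNA, ZRANB1 siRNA and scramble siRNA. Its level with the EZH2 shRNA was 61.8% of control (log2 fold change -0.68, adjusted p = 2.51e-04), and in the other comparison 149% (0.56, adjusted p = 1.90e-04). IFIT1 went from 28.1, 29.8 and 34.7 to 17.8, 18.1 and 22.05 FPKM with the EZH2 shRNA (adjusted p = 0.00456), and from 9.77, 9.81 and 11.4 to 13.1, 13.97 and 14.8 FPKM with the ZRANB1 siRNA label (adjusted p = 0.0226). IFIT2 went from 36.9, 39.6 and 40.3 to 19.8, 24.7 and 29.7 FPKM, and from 9.72, 9.84 and 11.9 to 15.1, 15.2 and 16.96 FPKM (adjusted p = 0.0126 and 0.0129). The same order of the 4 groups held for both, without overlap in either comparison. IFIT5 differed from its neighbours in pattern, at 11.6 ± 1.66, 10.3 ± 0.877, 14.3 ± 2.13 and 11.7 ± 1.47 FPKM (mean ± SD, n = 3) in the order shRNA control, EZH2 shRNA, siRNA control, ZRANB1 siRNA, with overlapping values in both comparisons. Its log2 fold changes were -0.15 (95% interval -0.43 to 0.13) and -0.26 (-0.54 to 0.018). For a single gene the smallest two-sided p of an exact permutation test with 3 values in each group is 0.1, reached wherever values do not overlap.

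**Figure D3:**
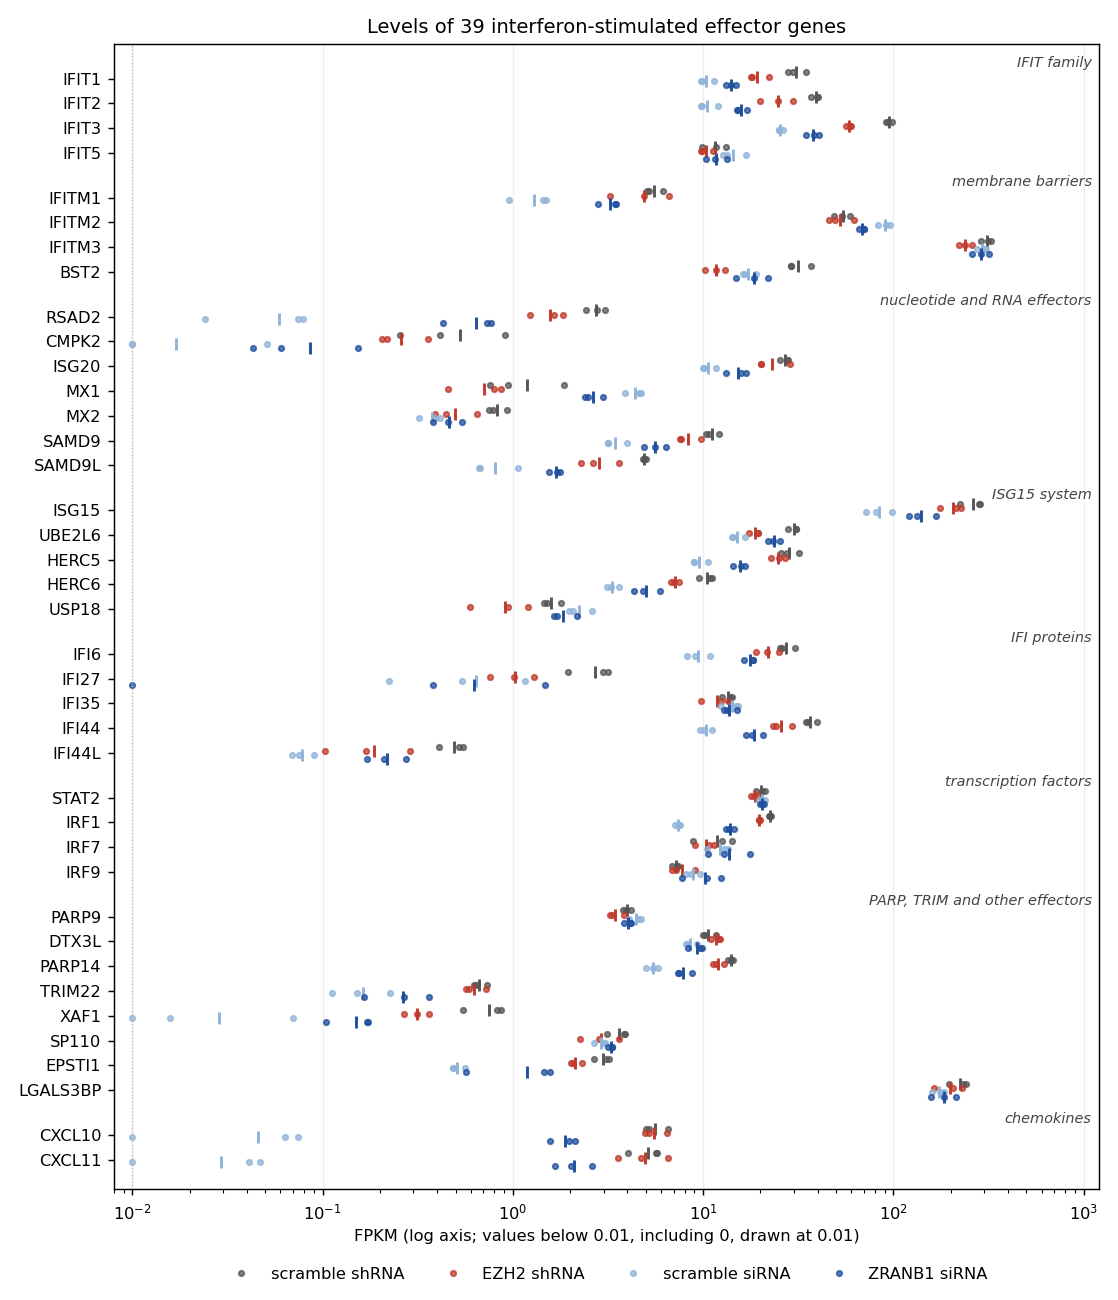
FPKM (x axis, log scale; values below 0.01 drawn at 0.01) of each of the 39 members (y axis, grouped by role) in 4 groups; points are the 3 values and ticks their mean. IFITM3, ISG15 and LGALS3BP are the most abundant members, the light blue scramble siRNA points lie lowest for most members, and MX1 and IFITM2 show the light blue points highest.

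Of the membrane-bound factors, IFITM1, IFITM2 and IFITM3 hinder the fusion of viral and cell membranes, and BST2 (tetherin) ties budding virions to the cell surface. BST2 showed the largest fall of the tested members with the EZH2 shRNA. It stood at 28.96, 28.99 and 36.7 FPKM in control and 10.3, 11.7 and 12.97 FPKM with the EZH2 shRNA, 36.9% of control (log2 fold change -1.36, 95% interval -1.67 to -1.05, adjusted p = 2.94e-04). The EZH2 shRNA values lay well below all control values. In the siRNA arm BST2 stood at 16.3, 16.6 and 18.95 FPKM in control and 14.8, 18.5 and 21.9 FPKM with the ZRANB1 siRNA label, with overlap (log2 fold change 0.072, 95% interval -0.24 to 0.38). The EZH2 shRNA values of BST2 were the lowest of the 4 groups without overlap, and of the 10 called members this held also for IFITM3. IFITM3 was the most abundant member in all 4 groups. It stood at 287, 315 and 325 FPKM in control and 220.1, 237 and 257 FPKM with the EZH2 shRNA, a non-overlapping fall to 77.1% (adjusted p = 0.0312); in the siRNA arm the means were 293 ± 15.5 and 288 ± 30.4 FPKM (SD, n = 3). IFITM1, the neighbour of both on chromosome 11, had values of 5.07, 5.204 and 6.18 FPKM in the shRNA control and 3.23, 4.86 and 6.61 FPKM with the EZH2 shRNA, which overlapped. In the siRNA arm it rose from 0.958, 1.43 and 1.501 to 2.79, 3.42 and 3.47 FPKM (log2 fold change 0.88, adjusted p = 0.00694). IFITM2 moved the other way there, from 83.1, 90.9 and 96.4 to 66.3, 69.8 and 69.8 FPKM (log2 fold change -0.39, adjusted p = 0.0319), and its siRNA control values lay above the 48.9, 53.9 and 59.1 FPKM of the shRNA control. IFITM2 and IFITM3 are close paralogs, so the division of fragments between them is uncertain.

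Among effectors that act on nucleotides, RNA and translation, RSAD2 (viperin) makes a chain-terminating nucleotide, CMPK2 is a mitochondrial nucleotide kinase whose gene lies next to it, and ISG20 is an RNA exonuclease. RSAD2 stood at 2.42, 2.76 and 3.04 FPKM in the shRNA control and 1.23, 1.64 and 1.84 FPKM with the EZH2 shRNA (log2 fold change -0.55, adjusted p = 0.0297). It was close to 0 with the scramble siRNA, at 0.02398, 0.0742 and 0.07899 FPKM, and at 0.427, 0.733 and 0.768 FPKM with the ZRANB1 siRNA label (log2 fold change 0.63, adjusted p = 0.00642). No pair of the 4 groups overlapped. RSAD2 had a mean of 1.25 FPKM over the 12 values and passed the filter through its shRNA groups. Its lower call with the EZH2 shRNA is thus partly built into the filter. That call was made in 6 of 12 alternatives, among them the fit with no filter. CMPK2 did not pass the filter; its values were 0.254, 0.413 and 0.911 FPKM with the scramble shRNA, 0.204, 0.217 and 0.357 with the EZH2 shRNA, 0, 0 and 0.0508 with the scramble siRNA and 0.0433, 0.0604 and 0.153 with the ZRANB1 siRNA label, and they overlapped in both comparisons. ISG20 had means of 26.9 ± 1.38 and 23.0 ± 4.98 FPKM in the shRNA arm, with overlap, and rose from 9.96, 10.05 and 11.6 to 13.2, 15.8 and 16.8 FPKM in the siRNA arm (adjusted p = 0.0281).

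The neighbouring genes SAMD9 and SAMD9L encode proteins that restrict poxviruses and hold back translation. SAMD9L fell from 4.84, 4.86 and 4.998 to 2.27, 2.64 and 3.604 FPKM with the EZH2 shRNA (log2 fold change -0.64, adjusted p = 0.0158), and rose from 0.664, 0.671 and 1.07 to 1.55, 1.71 and 1.78 FPKM in the siRNA arm (0.58, adjusted p = 0.0104). SAMD9 had means of 11.1 ± 0.923 and 8.31 ± 1.22 FPKM in the shRNA arm, where values did not overlap and no change was called (adjusted p = 0.0842), and rose from 3.43 ± 0.484 to 5.61 ± 0.721 FPKM in the siRNA arm (adjusted p = 0.00623). MX1 and MX2 encode dynamin-like GTPases that trap viral nucleocapsids. MX1 was low with the scramble shRNA, at 0.7597, 0.946 and 1.85 FPKM, and with the EZH2 shRNA, at 0.456, 0.792 and 0.861 FPKM, and these values overlapped. It was higher with the scramble siRNA, at 3.88, 4.59 and 4.73 FPKM (log2 difference 1.33, adjusted p = 5.77e-05), and stood at 2.395, 2.49 and 2.98 FPKM with the ZRANB1 siRNA label, below its control (log2 fold change -0.58, adjusted p = 0.0400). MX1 thus had the reverse order of groups between the controls from most members. MX2, next to it on chromosome 21, was below the filter, with means of 0.823 ± 0.09402, 0.494 ± 0.135, 0.374 ± 0.0459 and 0.459 ± 0.0791 FPKM in the order shRNA control, EZH2 shRNA, siRNA control, ZRANB1 siRNA.

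ISG15 is a ubiquitin-like protein that UBE2L6, as conjugating enzyme, and HERC5, as ligase, attach to newly made proteins; HERC6 is a relative of HERC5, and USP18 removes ISG15 and restrains the interferon receptor. ISG15 was among the most abundant members, at 225, 281 and 283 FPKM in the shRNA control and 176, 214 and 226 FPKM with the EZH2 shRNA, where the groups overlapped (log2 fold change -0.35, adjusted p = 0.214). In the siRNA arm it rose from 71.4, 80.8 and 98.6 to 120.4, 133 and 167 FPKM (0.74, adjusted p = 0.00702). UBE2L6 was called in each comparison. It fell from 27.9, 30.7 and 30.9 to 17.4, 19.4 and 19.5 FPKM with the EZH2 shRNA (log2 fold change -0.64, adjusted p = 0.00133), and it rose from 14.2, 14.3 and 16.6 to 21.9, 23.4 and 25.3 FPKM with the ZRANB1 siRNA label (0.62, adjusted p = 4.72e-04). Unlike IFIT1, IFIT2 and IFIT3, UBE2L6 stood higher with the ZRANB1 siRNA label than with the EZH2 shRNA, in values that did not overlap. HERC6 fell from 9.53, 10.9 and 11.1 to 6.81, 6.99 and 7.43 FPKM and rose from 3.11, 3.28 and 3.62 to 4.32, 4.83 and 5.904 FPKM (adjusted p = 0.0133 and 0.00829). HERC5, its neighbour on chromosome 4, had means of 28.4 ± 3.14 and 24.8 ± 2.01 FPKM in the shRNA arm, where values overlapped, and rose from 9.52 ± 0.975 to 15.6 ± 1.09 FPKM in the siRNA arm (adjusted p = 9.41e-04). USP18 was called in neither comparison. Its 3 values with the EZH2 shRNA, 0.595, 0.942 and 1.20 FPKM, lay below the 1.45, 1.505 and 1.78 FPKM of control (adjusted p = 0.0833), and in the siRNA arm it had 2.21 ± 0.3401 and 1.83 ± 0.2896 FPKM, with overlap.

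Of the genes named only as interferon-induced, IFI6 encodes a small membrane protein that protects cells from some viruses and from cell death, IFI27 a relative of it, IFI35 a partner of NMI, and IFI44 and IFI44L neighbouring paralogs. IFI44 stood at 34.5, 35.6 and 39.7 FPKM with the scramble shRNA, 23.3, 24.2 and 29.4 with the EZH2 shRNA, 9.67, 10.1 and 11.1 with the scramble siRNA and 16.7, 17.96 and 20.6 with the ZRANB1 siRNA label. The 4 groups did not overlap; the fall with the EZH2 shRNA had a log2 fold change of -0.50 (adjusted p = 0.0171) and the rise in the siRNA arm one of 0.78 (adjusted p = 3.80e-04). IFI44L was below the filter, at 0.409, 0.524 and 0.544 FPKM in the shRNA control, 0.103, 0.169 and 0.287 with the EZH2 shRNA, 0.0694, 0.0752 and 0.0905 in the siRNA control and 0.171, 0.211 and 0.274 with the ZRANB1 siRNA label. Its 3 values were below control with the EZH2 shRNA and above control with the ZRANB1 siRNA label. IFI6 rose from 8.24, 9.06 and 10.8 to 16.5, 18.3 and 18.3 FPKM in the siRNA arm (0.85, adjusted p = 4.72e-04), while its 27.3 ± 2.701 and 21.9 ± 3.08 FPKM in the shRNA arm did not overlap and were not called. IFI27 had 1.95, 2.98 and 3.18 FPKM in the shRNA control and 0.756, 1.02 and 1.29 FPKM with the EZH2 shRNA, 37.8% of control without overlap. Its interval was wide, -1.53 to -0.19 around a log2 fold change of -0.86, and it was not called (adjusted p = 0.127). IFI35 was called in neither comparison, with group means from 11.9 to 14.2 FPKM.

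Of 4 tested transcription factors 0 were called with the EZH2 shRNA and 1, IRF1, in the siRNA arm, where 6.41% and 16.6% of all genes were called, so these counts are not read as a result about the group. IRF1, which activates interferon-stimulated and class I genes, stood at 22.3, 22.5 and 22.9 FPKM in the shRNA control and 19.6, 19.7 and 19.9 FPKM with the EZH2 shRNA, a narrow non-overlapping difference that was not called (log2 fold change -0.18, adjusted p = 0.0911). It rose from 7.07, 7.43 and 7.53 FPKM with the scramble siRNA to 13.2, 13.6 and 14.5 FPKM with the ZRANB1 siRNA label (0.82, adjusted p = 2.07e-06). STAT2, a subunit of the complex that binds response elements, had means of 20.04 ± 1.11, 18.6 ± 0.965, 20.4 ± 0.772 and 20.4 ± 0.519 FPKM in the order shRNA control, EZH2 shRNA, siRNA control, ZRANB1 siRNA. Its 95% intervals were narrow, -0.24 to 0.046 with the EZH2 shRNA and -0.14 to 0.15 in the siRNA arm. No change was called. IRF9, its DNA-binding partner, had log2 fold changes of 0.085 (-0.23 to 0.40) and 0.18 (-0.14 to 0.49). IRF7, which drives interferon alpha genes, had -0.15 (-0.57 to 0.26) and 0.13 (-0.29 to 0.54). Neither was called, and the intervals are wider than those of STAT2.

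In the remaining group of effectors, 0 of 6 tested members were called with the EZH2 shRNA and 1 of 6, PARP14, in the siRNA arm, shares near the 6.41% and 16.6% of all genes called in these comparisons. PARP9 and DTX3L encode an ADP-ribosyltransferase and a ubiquitin ligase that form a complex, from adjacent genes on chromosome 3, and PARP14 is a further ADP-ribosyltransferase. PARP14 rose from 5.01, 5.47 and 5.78 to 7.34, 7.42 and 8.76 FPKM in the siRNA arm (0.46, adjusted p = 0.00284). With the EZH2 shRNA its values, 11.2, 11.7 and 12.8 FPKM, lay below the 13.5, 14.04 and 14.3 FPKM of control without being called (adjusted p = 0.166). PARP9 had group means from 3.46 to 4.43 FPKM and DTX3L from 8.57 to 11.7 FPKM, and each overlapped its control in both comparisons. EPSTI1 had 2.66, 3.08 and 3.19 FPKM with the scramble shRNA, 2.01, 2.08 and 2.295 with the EZH2 shRNA, 0.482, 0.487 and 0.5595 with the scramble siRNA and 0.567, 1.45 and 1.56 with the ZRANB1 siRNA label, where 1 value lay just above the siRNA control and the other 2 were further above it. It was not called in either comparison (adjusted p = 0.249 and 0.0558), and their difference was called (adjusted p = 0.0367), a call made in 6 of 17 alternatives. XAF1, a partner of the apoptosis inhibitor XIAP, was below the filter, at 0.547, 0.826 and 0.868 FPKM in the shRNA control, 0.268, 0.313 and 0.364 with the EZH2 shRNA, 0, 0.0158 and 0.0701 in the siRNA control and 0.104, 0.172 and 0.173 with the ZRANB1 siRNA label, with no overlap in either comparison. With no filter on low values, IFI44L, XAF1 and MX2 were called lower with the EZH2 shRNA (adjusted p = 0.0107, 0.00834 and 0.0458), and 0 of the 5 members below the filter were called in the siRNA arm. TRIM22, a ubiquitin ligase, was also below the filter, at 0.665 ± 0.0599, 0.628 ± 0.0841, 0.163 ± 0.0588 and 0.265 ± 0.0993 FPKM in that order. The nuclear body gene SP110 and LGALS3BP, which encodes a secreted glycoprotein, were called in neither comparison, with group means from 2.90 to 3.61 FPKM and from 174 to 223 FPKM.

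The T-cell chemokine genes CXCL10 and CXCL11, neighbours on chromosome 4 whose products bind CXCR3, showed the largest rises of the tested members in the siRNA arm and no called change with the EZH2 shRNA. CXCL10 stood at 0, 0.0632 and 0.0743 FPKM with the scramble siRNA and 1.57, 1.97 and 2.12 FPKM with the ZRANB1 siRNA label (log2 fold change 1.46, adjusted p = 9.02e-06). CXCL11 stood at 0, 0.04099 and 0.04696 FPKM in the siRNA control and 1.66, 2.02 and 2.599 FPKM with the ZRANB1 siRNA label (1.58, adjusted p = 1.23e-04). Both were near 0 in the siRNA control, so no ratio is given. In the shRNA arm CXCL10 had 4.998, 5.19 and 6.55 FPKM in control and 4.97, 5.21 and 6.45 FPKM with the EZH2 shRNA, a log2 fold change of -0.0073 (95% interval -0.28 to 0.26). CXCL11 had 4.01, 5.64 and 5.74 FPKM in control there and 3.58, 4.72 and 6.55 FPKM with the EZH2 shRNA (-0.060, -0.46 to 0.34). The difference between the comparisons was called for both, with adjusted p of 2.21e-04 and 0.00181.

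The upstream genes were read from lists of the pathway, also chosen with earlier results of these data known. Their counts stand against the shares over all genes, 3.39% called higher and 3.03% lower with the EZH2 shRNA and 10.1% higher and 6.5% lower in the siRNA arm. In lists of 5 to 15 genes 1 or 2 calls can lie above these shares, but are too few to be read as a result about the list. Of 24 listed interferon ligand symbols 21 were in the table, 18 of these were listed at 0 in all 12 libraries, IFNB1 and IFNG among them, and 0 passed the filter. The type III interferon genes IFNL1, IFNL2 and IFNL3 had values above 0, IFNL2 and IFNL3 in 1 library each at 0.199 FPKM with the EZH2 shRNA and 0.215 FPKM in the shRNA control. IFNL1 had 1.05, 1.59 and 3.26 FPKM in the shRNA control, 0.178, 0.497 and 0.629 FPKM with the EZH2 shRNA, 0 in all 3 scramble siRNA libraries and 0, 0.355 and 0.403 FPKM with the ZRANB1 siRNA label. Its scramble shRNA values lay above those of each other group. Of 10 tested receptor, kinase and signalling genes, 0 were called with the EZH2 shRNA and 1 in the siRNA arm, JAK1, which rose from 17.6 ± 1.36 to 24.3 ± 0.637 FPKM (adjusted p = 0.00130).

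Of 14 tested genes of nucleic acid sensing, 2 rose and 2 fell with the EZH2 shRNA, and 5 rose and 1 fell in the siRNA arm. IFIH1, a sensor of double-stranded RNA, fell from 11.03 ± 0.274 to 7.601 ± 0.532 FPKM and rose from 1.09 ± 0.113 to 4.27 ± 0.748 FPKM (adjusted p = 0.0158 and 3.61e-06). MAVS, the adaptor of that sensor, rose in both, from 24.02 ± 1.03 to 31.8 ± 3.97 FPKM and from 12.3 ± 0.167 to 18.4 ± 0.455 FPKM (adjusted p = 0.0187 and 7.79e-04). TMEM173, which encodes the DNA-sensing adaptor STING, fell in the siRNA arm, from 12.6 ± 0.723 to 7.26 ± 0.858 FPKM (adjusted p = 0.00229). Of 9 tested genes that restrain the pathway, 0 rose and 2 fell with the EZH2 shRNA, and 3 rose and 2 fell in the siRNA arm. SOCS3, a feedback inhibitor of JAK kinases, was lower in both, from 18.3 ± 2.04 to 10.9 ± 1.33 FPKM and from 26.4 ± 1.38 to 19.03 ± 1.46 FPKM (adjusted p = 0.00222 and 0.0102).

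Of 5 tested genes of the oligoadenylate synthetase and PKR arm, which degrades RNA and halts translation, 1 rose and 1 fell with the EZH2 shRNA and 3 rose in the siRNA arm. OAS2 went from 8.31 ± 0.259 to 5.63 ± 0.428 FPKM and from 1.704 ± 0.349 to 3.402 ± 0.177 FPKM (adjusted p = 0.0123 and 3.97e-04), and EIF2AK2, which encodes PKR, rose with the EZH2 shRNA from 10.5 ± 1.03 to 14.3 ± 1.39 FPKM (adjusted p = 0.0371). Interferon gamma response genes had 1 higher and 3 lower of 15 with the EZH2 shRNA, and 13 higher and 1 lower in the siRNA arm, with medians of -0.23 and 0.58. With the scramble siRNA 14 of these 15 were lower than with the scramble shRNA and 1 was higher (median -1.25). Of all genes, 25.1% were called lower and 25.5% higher between the controls. GBP4, a guanylate-binding protein gene, went from 3.67 ± 0.221 to 2.11 ± 0.215 FPKM and from 0.305 ± 0.0573 to 0.915 ± 0.105 FPKM (adjusted p = 0.00476 and 0.00227). The adhesion gene ICAM1, which NF-kB also induces, rose in both, from 39.1 ± 1.91 to 69.2 ± 2.97 FPKM and from 5.03 ± 0.7299 to 33.5 ± 2.36 FPKM (adjusted p = 5.42e-04 and 8.99e-09), while CIITA, the activator of class II genes, fell in the siRNA arm from 3.14 ± 0.478 to 1.93 ± 0.386 FPKM (adjusted p = 0.0284). Of 29 further interferon-stimulated genes 0 rose and 5 fell with the EZH2 shRNA, and 9 rose and 0 fell in the siRNA arm, with medians of -0.14 and 0.24. With the scramble siRNA 20 of these 29 were lower than with the scramble shRNA and 3 were higher (median -0.50). CH25H, which makes an antiviral oxysterol, went from 4.77, 4.91 and 5.38 to 2.57, 2.75 and 3.15 FPKM (adjusted p = 0.0281), and from 0, 0 and 0.231 to 1.72, 1.795 and 3.06 FPKM (adjusted p = 3.70e-05). The RNA-binding antiviral gene ZC3HAV1 fell from 28.8 ± 2.01 to 20.7 ± 0.387 FPKM with the EZH2 shRNA (adjusted p = 0.00550) and rose from 11.5 ± 1.03 to 14.9 ± 0.488 FPKM in the siRNA arm (adjusted p = 0.00921).

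**Figure D4:**
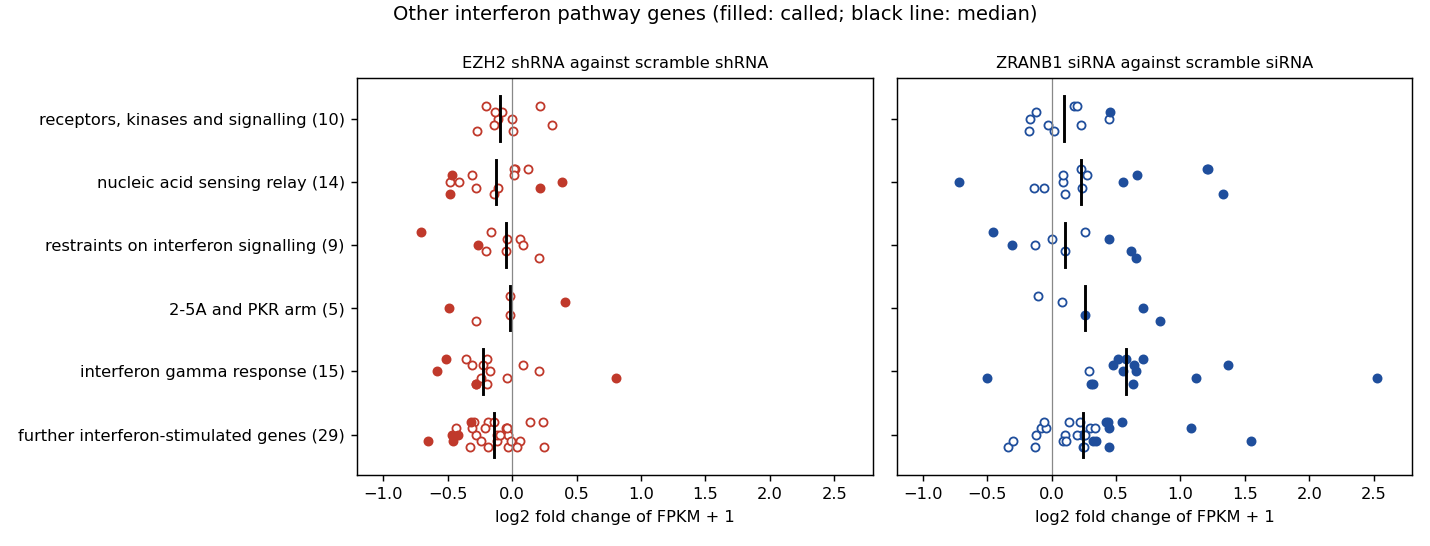
Log2 fold change of FPKM + 1 (x axis) of the tested genes of 6 pathway lists (y axis, number tested in parentheses) with the EZH2 shRNA (left, red) and in the ZRANB1 siRNA group (right, blue), each against its own control; filled points were called and black lines are medians. In the siRNA arm the interferon gamma response list has its median at 0.58 with 13 of 15 genes called higher, and with the EZH2 shRNA no list median lies above 0.

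The response element was found in promoter windows of both called and uncalled members. With the EZH2 shRNA, 6 of the 9 called members with a window held GAAANNGAAA, against 15 of 21 tested members not called. In the siRNA arm it was 12 of 17 of those called higher, 1 of 1 of those called lower (MX1) and 8 of 12 of those not called. These counts are given without a test. HERC6, SAMD9L and UBE2L6, called in both comparisons, held no match in these windows.

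The EZH2 shRNA calls were sensitive to the spread used. With only the 6 values of that comparison, 3 members were called lower (BST2, IFIT3 and UBE2L6) in place of 10. These 3 were the ones called in each of 13 alternatives, which do not count the fold threshold. With a threshold of 1 on the absolute log2 fold change, 1 member, BST2, stayed called lower. The highest adjusted p over the alternatives was 0.0630 for IFIT1, 0.0991 for IFIT2, 0.107 for IFITM3, 0.152 for RSAD2, 0.0865 for SAMD9L, 0.0629 for HERC6 and 0.0938 for IFI44. In the siRNA arm 15 of the 20 calls held in every one of these alternatives that tested the member. There were 13 such alternatives, but 12 for IFITM1, RSAD2, SAMD9L, CXCL10 and CXCL11, which the filter at 5 FPKM left out. Those of IFIT1, IFIT2, ISG20, IFITM2 and MX1 did not, with highest adjusted p of 0.0829, 0.0538, 0.103, 0.111 and 0.119. With the fold threshold 2 members, CXCL10 and CXCL11, stayed called higher and 0 lower. The call of MX1 was lost in each of the 6 fits without 1 value of a group.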

How the data were processed

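The authors deposited 1 table of FPKM values for 12 libraries of total RNA, 3 per group. The submitters' processing notes name TopHat2 (2.1.1), SAMtools, Cufflinks (2.2.1), Cuffdiff (2.2.1) and build hg19; neither annotation nor strand setting was found, so reads of overlapping or antisense neighbours (CMPK2 and RSAD2, PARP9 and DTX3L) may not be separated. In every row with 3 different values in a group (15454 to 15850 rows per group), the values stood in text order, against 16.7% by chance. Means, SDs and fits per gene are unaffected, but columns do not follow libraries. Where a symbol was repeated (442 symbols), its row of highest mean entered, and 27 rows with date-like symbols were left apart. Values entered limma 3.58.1 (R 4.3.3) as log2(FPKM + 1), for 11929 genes averaging 1 FPKM or more, with a mean per group, all 4 groups in 1 fit (8 residual degrees of freedom), an intensity trend and Benjamini-Hochberg adjustment. Single genes were also compared by exact permutation. The fit was also run on simulated data with independent noise and with changes set only in the EZH2 shRNA comparison. That run does not bear on a spread that is technical only, or on the difference of effects. Members and pathway lists were chosen with earlier results of these data known. All members are named; of other pathway genes the rule was up to 4 called genes per list and comparison with the lowest adjusted p, and 1 gene that it also names is not reported here. IFNL1, IFNL2, IFNL3, TMEM173 and CIITA fall outside it and were chosen after their values were seen. Alternatives were another pseudocount, other filters, the 6 values alone, no trend, a scaling factor per group, summed rows, a fold threshold and leaving out values. With 3 values in each group precision is low, and the deposited table gives no depth.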

Additional observations from a re-analysis of the deposited data

How the results depend on the processing

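No paired analysis was possible because the values of a row were deposited in text order, so columns carry no library and replicate numbers pair nothing. No fold change of a called member changed sign under any alternative run. For members lower in the ZRANB1 siRNA comparison (2), a pseudocount of 0.1 and no filter each left 1. A filter at 5 FPKM also left 1, because MX1, with a mean of 2.23 FPKM, was not tested there. The filter at 5 FPKM, which tests fewer genes, gave 260 genes higher with the EZH2 shRNA and 268 genes with a lower difference of effects. It gave 1 member higher between the controls, again with MX1 not tested. With only the 6 values compared, 104 genes were higher, 81 lower and 3 members lower with the EZH2 shRNA, and 4 members were higher between the controls. A further threshold of 1 on the absolute log2 fold change left 14 genes higher, 22 lower and 1 member lower with the EZH2 shRNA; 211 genes higher, 12 lower, 2 members higher and 0 lower in the ZRANB1 siRNA comparison; 265 genes higher and 44 lower for the difference of effects; and 394 genes higher, 618 lower and 1 member higher between the controls. Leaving out 1 value of a group at a time, in a random order within each gene, gave 224 to 307 genes higher, 184 to 317 lower and 6 to 9 members lower with the EZH2 shRNA. It gave 938 to 953 genes higher, 460 to 499 lower, 15 to 18 members higher and 0 to 1 lower in the ZRANB1 siRNA comparison. The difference of effects had 656 to 798 genes higher, 311 to 404 lower and 17 to 20 members higher, and the controls had 2668 to 2736 genes higher, 2654 to 2705 lower, 2 to 3 members higher and 21 to 22 lower. Members higher with the EZH2 shRNA and members with a lower difference stood at 0 in all alternatives run. The fold threshold is left out of the counts of alternatives that follow. Between the controls DTX3L was called in 10 of 13 alternatives. For the difference, IFITM1 was called in 13 of 17, ISG20 in 9 of 18 and EPSTI1 in 6 of 17. The cause was not tested. Depth behind each value is unknown.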
